A study of Mus musculus with 4 samples.

Results

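The 51 genes described here encode proteins of the mammalian DNA repair pathways. They were chosen by name, from a list of repair genes, and all 51 were found among the 23420 genes of the deposited tables. Nucleotide excision repair supplied 21 of them, and the other 30 belong to end joining (5), homologous recombination (6), interstrand crosslink repair (2), mismatch repair (2), base excision and single-strand break repair (8), direct reversal of alkylation (2), translesion synthesis (1) and the damage kinases (4). mRNA was measured by RNA sequencing in cochlear cells of Atoh1-GFP transgenic mice on a CD-1 background, taken at postnatal day 1. Cochleae were kept as organ cultures overnight in low oxygen with penicillin, which all groups share, and were then left untreated or exposed to 0.5 mM gentamicin, an aminoglycoside antibiotic that kills hair cells, for 3 h. The organs were dissociated and sorted at once into GFP-positive hair cells (HC) and GFP-negative non-hair cells (NHC), with 3 replicates in each of the 4 groups and no replicate left out. GFP is driven by an enhancer of Atoh1, so the HC samples hold inner and outer hair cells together. Cells with weak GFP were gated out, and the NHC samples are a mixture of supporting cells, cells of the epithelial ridges and surrounding tissue.

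Nucleotide excision repair removes bulky lesions from DNA. Damage is found either by the XPC and DDB sensors anywhere in the genome or by CSA and CSB where RNA polymerase stalls on a transcribed strand, and both routes then recruit TFIIH, which opens the helix before XPA and the XPF and XPG nucleases cut out the damaged stretch. TFIIH, with its CDK-activating kinase, is also a general transcription factor of RNA polymerase II, and the same kinase drives the cell cycle. Double-strand breaks are joined end to end or repaired from a homologous copy, and the latter route is used mainly by cells that replicate their DNA, whereas hair cells have left the cell cycle.

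The deposited value is a score per gene and replicate. It behaves as the number of reads on the gene, scaled for each replicate, with 1 added, so 1 is the lowest score and stands for no reads. Reads on genes, recovered from the step between low scores, numbered 22399803 to 28151367 per replicate with a median of 25115827. All 51 genes passed the minimum of 100 reads over the 12 replicates, as did 16088 genes in all. The least read of the repair genes was Chek1 in control hair cells, with a mean of 24.6 reads, and Rad52 had 289.7 there, so changes of the least read genes are measured with less precision. A gene was called higher or lower in limma, a linear model fitted across all genes, at an unadjusted p below 0.01 with a fold change above 1.2, which are the thresholds of the study. The p-values of limma were adjusted over the 16088 genes by the Benjamini-Hochberg method. Errors of log2 fold changes are given as ± standard errors of the model, with 3 replicates a group. They rest on 1 spread per gene, shared by all 4 groups and moderated across genes. A group with wide scatter therefore widens the error of that gene in every comparison.

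The sorted populations carried the marker genes of their labels. All 10 hair cell markers were higher in control hair cells than in control non-hair cells, with a summed score of 12902 to 13402 against 291 to 298. All 8 mesenchyme, 7 endothelium and 6 glial markers and all 16 markers of cycling cells were lower in hair cells (37.7% of all genes were). So were 4 of 6 macrophage and blood and 2 of 4 melanocyte markers. For 2 lists the share lower was below that of all genes: 2 of 6 neuronal and 1 of 6 greater epithelial ridge and tectorial markers. Summed neuronal scores overlapped, at 1035 to 1219 in control hair cells and 504 to 1390 in control non-hair cells. Ridge and tectorial sums overlapped too, at 2365 to 3080 and 2846 to 6146. The supporting cell markers were not lower in the sorted hair cells: 1 of 10 was higher, and their summed score was 1656 to 1914 in control hair cells and 1176 to 1945 in control non-hair cells. With gentamicin, some markers of other cells and 1 hair cell marker were called lower in the hair cell samples (14.8% of all genes were). This held for 4 of 10 supporting cell markers (summed score 772 to 1400), 4 of 8 mesenchyme markers (261 to 560 in control, 180 to 226 with gentamicin), 3 of 6 glial markers (227 to 280, then 116 to 194), 1 of 7 endothelial (15.6 to 29.6, then 8.45 to 14.7), 1 of 6 ridge and tectorial (2365 to 3080.28, then 1166 to 2864), 1 of 4 melanocyte (summed over the 5 listed, 12.7 to 15.8, then 11.1 to 12.3) and 1 of 10 hair cell markers (10836 to 11997 with gentamicin), and for none of the 6 neuronal and 6 macrophage and blood markers. No marker of these lists was at the lowest score in all replicates of a group except Mlana, of melanocytes, in control hair cells. The part of these shifts in the results below was not tested. In bulk samples, fewer cells of a type and less RNA per cell cannot be told apart.

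In hair cells 19 of the 51 repair genes were called higher with gentamicin (12.7% of all genes tested were) and 3 lower (14.8% of all genes, 27.5% in either direction). Of the 21 excision repair genes 11 were higher and 1 was lower. Outside excision repair 8 of 30 genes were higher and 2 lower. The median log2 fold change was 0.26 over the excision repair genes, 0.05 over the other 30 and -0.09 over all genes tested. At an adjusted p below 0.05 in limma with no fold threshold, 22 of the 51 were higher (14.8% of all genes) and 4 lower (18.4%, and 33.1% in either direction). The 3 treated replicates all lay above the 3 control replicates for 27 of the 51 genes (21.7% of all genes), 16 of them in excision repair, and all below for 8 (33.1% of all genes). Taken replicate by replicate, the median excision repair gene stood 0.29, 0.31 and 0.28 above its control mean on the log2 scale in the 3 treated samples, while the median of the other repair genes stood 0.06, 0.09 and 0.03 above it and that of all genes 0.07 to 0.08 below it. These shares depend on the scaling. With scores scaled by the total of reads, all genes split into 2774 higher and 1591 lower in place of 2037 and 2381, and the repair genes into 24 higher and 2 lower. Without 1 replicate at a time, 15 to 21 of the repair genes were called, and 3288 to 4133 of all genes.

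**Figure D1:**
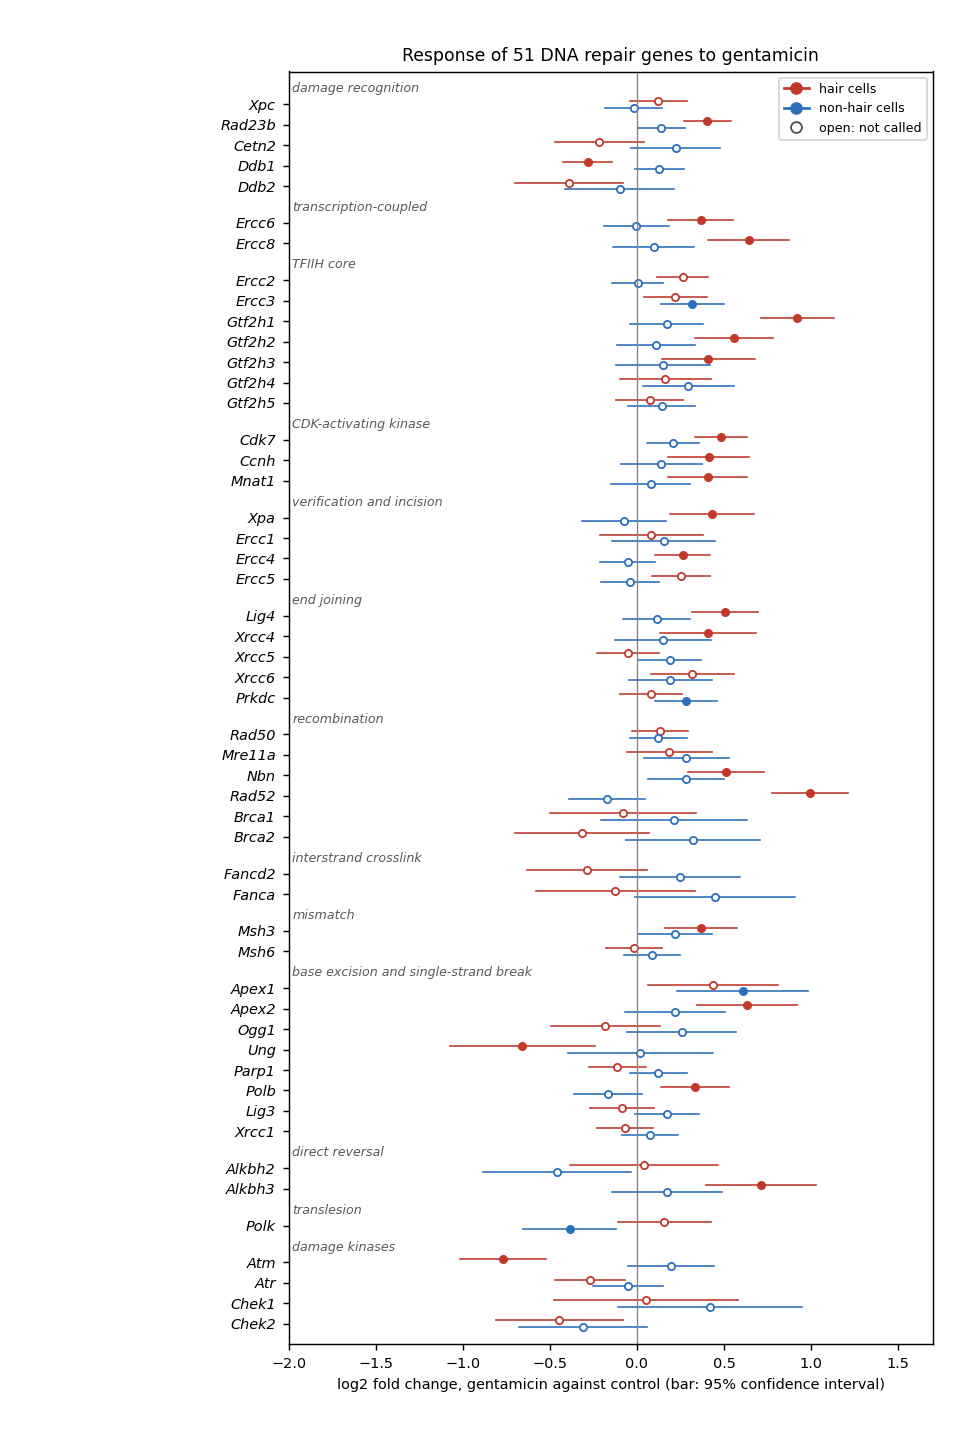
Log2 fold change with gentamicin (x axis) for each of the 51 repair genes (y axis), grouped by pathway and, within excision repair, by step; red is hair cells, blue is non-hair cells, bars are 95% confidence intervals and filled circles are genes called at an unadjusted p below 0.01 and a fold above 1.2. Red circles are filled for 2 of 2 transcription-coupled, 3 of 7 TFIIH core and 3 of 3 CDK-activating kinase genes, Rad52 lies farthest to the right at 0.99 and Atm farthest to the left of the red circles at -0.77.

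Both genes of the list that act where transcription stalls were called higher in hair cells (12.7% of all genes were). Ercc8 encodes CSA, the substrate receptor of the ubiquitin ligase that acts at stalled polymerases. Its score was 9.69, 10.3 and 11 in the control replicates and 16.7, 16.1 and 15.5 with gentamicin, and the groups did not overlap. That is a log2 fold change of 0.64 ± 0.11, adjusted p = 0.00117 in limma. In non-hair cells the scores were 10.8, 10.9 and 11.97 without and 12.5, 12.8 and 10.9 with gentamicin, which overlapped. Ercc6 encodes CSB, the remodeller that partners CSA. It scored 532, 505 and 513 in control and 640.1, 768 and 599 in treated hair cells, a log2 fold change of 0.36 ± 0.09 (adjusted p = 0.00803), and its call was lost without the second gentamicin replicate. Neither gene was called in non-hair cells. Uvssa, a further gene of the transcription-coupled route that is outside the 51 and was picked out after its value was seen, was called lower in hair cells (-0.30, adjusted p = 0.0325 in limma). It was the 1 gene called lower of 12 further excision repair genes. The 2 called higher were Xab2 (0.31, adjusted p = 0.00352 in limma) and Cul4b (0.31, adjusted p = 0.0187).

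TFIIH itself was raised in part. The core of 7 genes had 3 called higher (12.7% of all genes were), none lower, and all 7 fold changes above 0 (40.1% of all genes were above 0). Gtf2h1, the p62 subunit, rose most, from 31.6, 33.2 and 31.04 to 54.1, 69 and 59.3, by 0.92 ± 0.10 on the log2 scale (adjusted p = 9.03e-05). Its lowest treated replicate exceeded its highest control replicate by a wide margin. Gtf2h2, the p44 subunit that stimulates the XPD helicase, went from 20.4, 21.01 and 20.2 to 33.2, 29.7 and 27.8 (0.55 ± 0.10, adjusted p = 0.00215). Gtf2h3, the p34 subunit, went from 34.05, 31.9 and 31.1 to 41.9, 47.99 and 39.5 (0.41 ± 0.12, adjusted p = 0.0249). The groups of both genes were apart, but Gtf2h3 lost its call when any 1 of the 6 replicates was left out, except the third gentamicin replicate. The 2 helicases of the complex were not called: Ercc2 (XPD) had a log2 fold change of 0.26 with an adjusted p of 0.0122, just short of the fold threshold, and Ercc3 (XPB) had 0.22. Gtf2h4 and Gtf2h5, the p52 and p8 subunits that act on XPB, had 0.16 (95% confidence interval -0.10 to 0.42) and 0.07 (-0.12 to 0.27).

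All 3 genes of the CDK-activating kinase were called higher (12.7% of all genes were), by similar amounts. Cdk7, the kinase, scored 76.02, 72.97 and 75.4 in control and 102, 109 and 103 in treated hair cells. Ccnh, its cyclin, scored 22.6, 22.2 and 24.8 and then 33.2, 31.5 and 28.1. Mnat1, the assembly factor, scored 28.4, 28.9 and 28.8 and then 40.5, 41.5 and 32.7. For each of the 3 genes every treated replicate was above every control replicate. The log2 fold changes were 0.48 ± 0.07, 0.41 ± 0.11 and 0.40 ± 0.10, with adjusted p-values in limma of 0.000523, 0.0124 and 0.0118. Cdk7 was called in all 6 fits that leave out a replicate, and Ccnh and Mnat1 in 4 of 6 each. Ccnh lost its call without the second control replicate or the first gentamicin replicate, and Mnat1 without the first or the second gentamicin replicate.

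Damage recognition did not move as a group. Rad23b, which stabilises the XPC sensor, rose from 141, 136 and 137 to 191, 185 and 173 (0.40 ± 0.06, adjusted p = 0.000748). Ddb1, the adaptor of the CUL4 ubiquitin ligases, fell from 497, 476 and 487 to 414, 387 and 399 (-0.28 ± 0.06, adjusted p = 0.00683). These 2 genes separated the groups completely, in opposite directions, although the fall of Ddb1 was no longer called when scores were scaled by total reads or without the second gentamicin replicate. Ddb2, the lesion-binding partner of Ddb1, had -0.39 ± 0.14 (adjusted p = 0.055), Cetn2 (centrin 2, which also sits at centrioles) -0.22 ± 0.12, and Xpc 0.12 ± 0.07, none of them called. The median of the 5 genes was -0.22.

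At verification and incision, 2 of 4 genes were called higher (12.7% of all genes were). Xpa, the scaffold of the incision complex, rose from 12.6, 13.7 and 13.9 to 19.3, 18.3 and 16.6 (0.43 ± 0.11, adjusted p = 0.0124). Ercc4 (XPF), the nuclease that cuts 5′ of the lesion, rose from 39.1, 42.03 and 40.03 to 44.7, 49.5 and 51.5 (0.26 ± 0.07, adjusted p = 0.0169). Treated and control replicates did not overlap for either gene. Ercc4 lay just above the fold threshold and kept its call only without the second control or the first gentamicin replicate, and Xpa lost its call without the first control or the first gentamicin replicate. Ercc1, the partner of XPF, had 0.08 with a 95% confidence interval of -0.21 to 0.38. Ercc5 (XPG), which cuts 3′ of the lesion, had 0.25 ± 0.08 with an adjusted p of 0.0249, under the fold threshold.

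**Figure D2:**
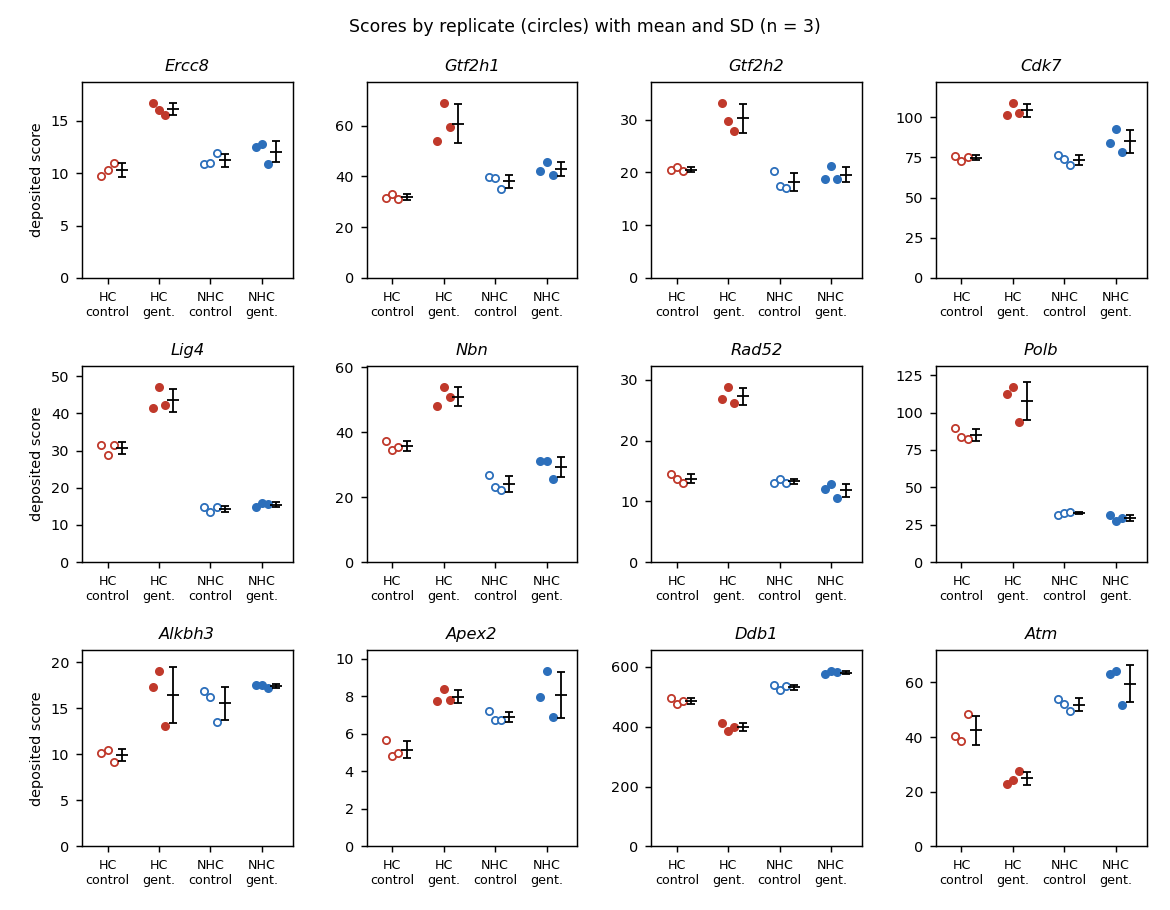
Deposited score (y axis, from 0, linear) by group (x axis; HC hair cells, NHC non-hair cells, gent. gentamicin) for 12 repair genes; circles are the 3 replicates and the black bar is the mean with its SD. In hair cells the treated circles lie above the control circles for the first 10 genes and below them for Ddb1 and Atm, without overlap.

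Outside excision repair, single genes rose. Rad52, which anneals single strands in recombination, had the largest rise of the 51 genes. It scored 14.5, 13.7 and 13.03 in control and 26.9, 28.8 and 26.2 in treated hair cells, a log2 fold change of 0.99 ± 0.10 with an adjusted p of 7.62e-05. In non-hair cells it scored 13.1, 13.7 and 13.05 and then 11.97, 12.8 and 10.6 (log2 -0.17, not called). Nbn, the nibrin subunit of the MRN complex that tethers broken ends and activates ATM, rose from 37.4, 34.5 and 35.3 to 48.2, 53.9 and 50.9 (0.51 ± 0.10, adjusted p = 0.0029). Its partners Rad50 and Mre11a had 0.13 and 0.19 and were not called. Brca1 and Brca2, which act in strand exchange, had -0.08 (-0.50 to 0.34) and -0.31 (-0.70 to 0.07). Of the 6 recombination genes 2 were called higher (12.7% of all genes were), with a median of 0.16, and of 25 further recombination genes 4 were higher and 2 lower.

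Of the 5 end joining genes, 2 were higher (12.7% of all genes were), and these 2 form the ligation complex. Of 6 further end joining genes tested none was higher and 1 was lower. Lig4, the ligase, scored 31.6, 28.8 and 31.6 in control and 41.4, 47.1 and 42.2 in treated hair cells (0.51 ± 0.09, adjusted p = 0.0015). Xrcc4, the scaffold on which LIG4 depends, scored 11.3, 10.9 and 10.95 and 15.4, 15.3 and 13.4 (0.41 ± 0.13, adjusted p = 0.0285). Neither gene overlapped between the groups, but Xrcc4 lost its call when any 1 of the 6 replicates was left out, except the third gentamicin replicate, whereas Lig4 kept it in all 6 fits. Among the genes that bind the ends, Xrcc6 (Ku70) had 0.32 (adjusted p = 0.0433), Xrcc5 (Ku80) -0.05 and Prkdc, the DNA-dependent kinase, 0.08, none of them called.

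The genes that mend single bases split. Apex2, an AP endonuclease, rose from 5.69, 4.81 and 4.96 to 7.76, 8.36 and 7.77 (0.63 ± 0.13, adjusted p = 0.00413), and Polb, the gap-filling polymerase, from 89.5, 83.9 and 82.1 to 112, 117 and 93.5 (0.33 ± 0.09, adjusted p = 0.0153). Ung, the glycosylase that removes uracil, fell from 3.03, 3.99 and 3.04 to 2.59, 1.64 and 2.20 (-0.66 ± 0.19, adjusted p = 0.0209). All 3 genes kept their groups apart. Ung had a mean of only 53.6 reads in control and 29.2 in treated samples, and it lost its call without the second control, the second gentamicin or the third gentamicin replicate. Polb kept its call only without the first control or the third gentamicin replicate, and Apex2 was called in all 6 fits that leave out a replicate. Apex1, the main AP endonuclease, had 0.44 ± 0.17 (adjusted p = 0.0696) and was not called. It scored 34.6, 32.6 and 32.6 in control and 43.95, 45.9 and 45.3 in treated hair cells, without overlap. It was called when the hair cell groups were fitted alone (unadjusted p = 0.00018 in limma), with scaling by total reads and with array weights. Parp1, Xrcc1, Lig3 and Ogg1 had -0.11, -0.07, -0.08 and -0.18, which were not called, and the median of the 8 genes was -0.08.

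Alkbh3, a dioxygenase that strips alkyl groups from single strands, rose from 10.1, 10.5 and 9.20 to 17.2, 18.99 and 13.01 in hair cells (0.71 ± 0.14, adjusted p = 0.0036). The third treated replicate was well below the other two but still above all controls. Alkbh2, the related enzyme for double strands, scored 3.61, 4.08 and 3.12 and 4.26, 3.85 and 3.03, which overlapped (0.04, 95% confidence interval -0.39 to 0.46). Msh3, which recognises small loops, rose from 51.3, 47.03 and 51.02 to 59.3, 69.03 and 64.5 (0.37 ± 0.10, adjusted p = 0.0132), while Msh6, which recognises single mismatches, had -0.02 (-0.18 to 0.15). The call of Msh3 was lost without the second control or the second gentamicin replicate. Fancd2 and Fanca, of the Fanconi pathway for crosslinks, had -0.29 and -0.13, and Polk, a polymerase that copies past damage, 0.16, with no call among the 3. Ercc8, Rad52, Apex2 and Alkbh3 were picked by the study for PCR from genes it had found induced, so their direction here is not independent of that choice.

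None of the 4 damage kinases was called higher and Atm was called lower (14.8% of all genes were). Atm, the kinase that responds to double-strand breaks, scored 40.3, 38.7 and 48.4 in control and 22.98, 24.1 and 27.5 in treated hair cells, with the groups far apart. Its log2 fold change was -0.77 ± 0.11, the lowest of the 51 genes, with an adjusted p of 0.000578 in limma. Atr, which responds to stalled forks, went from 40.99, 43.8 and 41.2 to 37.1, 34.6 and 32.97, with no overlap, and had -0.27 ± 0.09 (adjusted p = 0.0429), short of the unadjusted threshold. Chek2, the target of ATM, had -0.44 ± 0.17 (adjusted p = 0.06) at scores of 4.03, 4.69 and 3.93 and then 3.02, 3.67 and 2.66. Chek1, the target of ATR, had 0.05 with an interval of -0.47 to 0.58. The median of the 4 was -0.36. Of 13 further genes listed with the damage kinases, 3 were called higher (12.7% of all genes were) and 1 lower, with a median of 0.17.

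**Figure D3:**
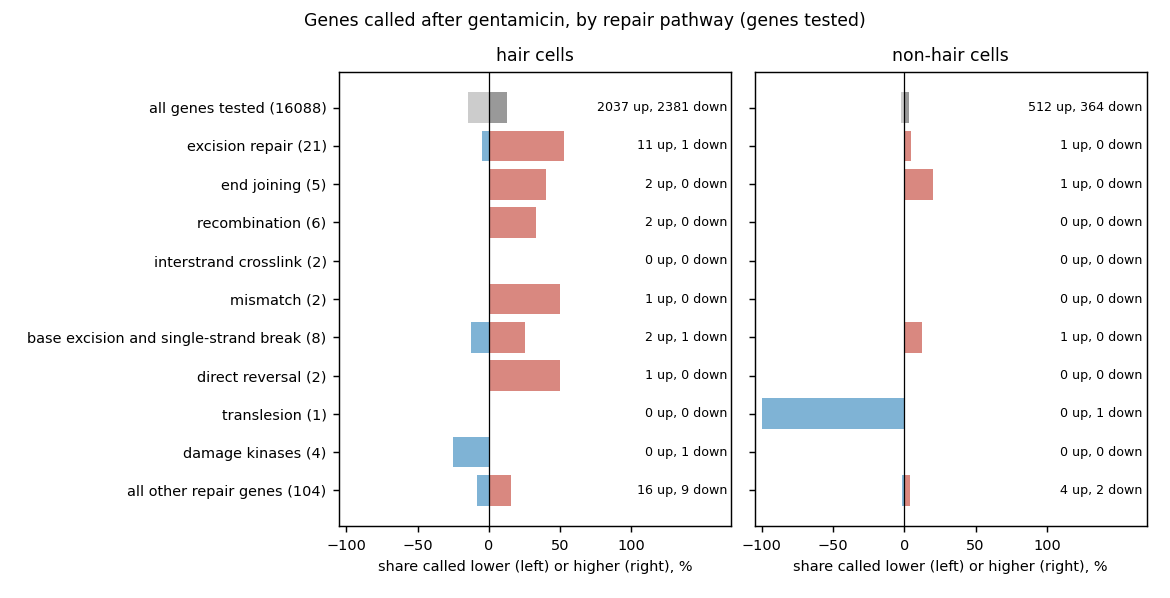
Share of the genes tested that were called lower (bars to the left) or higher (bars to the right) with gentamicin, in percent, for all genes (grey), each repair pathway of the 51 genes and 104 other repair genes, in hair cells (left panel) and non-hair cells (right panel); the number of genes tested stands in parentheses and the counts at the right edge. In hair cells excision repair has 11 of 21 genes higher and 1 lower, against 2037 and 2381 of 16088 genes.

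In non-hair cells few of the same 51 genes were called. There were 3 higher (3.18% of all genes) and 1 lower (2.26% of all genes, 5.45% in either direction). None of the 51 passed an adjusted p of 0.05 in limma (0.236% of all genes did upward, 0.106% downward and 0.342% in all), although 14 had all treated replicates above all controls (10.1% of all genes) and 3 all below (7.68%). Apex1 scored 33.7, 23.8 and 28.7 in control and 36.7, 59.2 and 37.4 in treated non-hair cells (0.61 ± 0.17, adjusted p = 0.121), with the second treated replicate far above the others. Ercc3 scored 36.6, 35.5 and 40.04 and 42.3, 49.4 and 48.1 (0.32 ± 0.08, adjusted p = 0.108). Prkdc scored 38.9, 39.5 and 46.8 and 54.8, 47.6 and 49.6 (0.28 ± 0.08, adjusted p = 0.126). Each of these 3 genes kept its groups apart, and none of the 3 was among the 19 called higher in hair cells. Polk was the gene called lower, from 30.2, 38.3 and 31.5 to 26.4, 22.7 and 27.2 (-0.39 ± 0.12, adjusted p = 0.156).

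The fold changes of non-hair cells leaned upward without passing the test: 39 of the 51 were above 0 (48.8% of all genes were), with a median of 0.14 against -0.01 over all genes, 0.13 in excision repair and 0.18 outside it. The calls depended on the replicates used, for the repair genes and for all genes. No repair gene was called without the second control replicate, 2 were called without the third control, the first gentamicin or the second gentamicin replicate, 5 without the first control and 8 without the third gentamicin replicate. Of all genes 876 were called with every replicate, and 411, 799, 796, 458, 1367 and 1571 in these fits, in the same order. No repair gene was called when the non-hair cell groups were fitted alone (383 of all genes were). The second gentamicin replicate stood above the other treated replicates for 5 genes picked out after their values were seen, Apex1 above and the following: Brca1 scored 11.8, 19.3 and 11.1, Brca2 23.2, 28.6 and 17.5, Chek1 8.58, 14.1 and 6.27 and Fanca 10.4, 18.9 and 10.01. The summed score of 16 markers of cycling cells was 646, 1032 and 567 in the same samples, with 559 to 642 in the controls, and 1 of the 16 was called higher. In hair cells the sum was 98 to 107 in control and 103 to 123 with gentamicin, again with 1 of 16 called higher. Among the other marker lists in non-hair cells, 1 of 7 endothelial markers was called higher and 1 of 4 melanocyte markers lower, and no other marker was called. With scaling by total reads, the calls over all genes in non-hair cells were 634 higher and 283 lower in place of 512 and 364, and those over the repair genes 4 higher and none lower.

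The response differed between the 2 populations for 6 of the 51 genes. The difference between the responses was tested as an interaction in limma, at an adjusted p below 0.05, and 4 genes had a higher response in hair cells (6.85% of all genes did) and 2 a lower one (6.56%, and 13.4% in either direction). Rad52 differed most, by 1.16 ± 0.14 (adjusted p = 0.00122), followed by Gtf2h1 at 0.75 ± 0.13 (adjusted p = 0.00664), Ercc8 at 0.54 ± 0.15 (adjusted p = 0.0357) and Polb at 0.50 ± 0.13 (adjusted p = 0.0264). Polb scored 31.8, 33.1 and 33.5 in control and 31.3, 27.2 and 29.5 in treated non-hair cells. There its treated replicates lay below the controls, but it was not called. Atm and Ddb1 were the genes with a lower response in hair cells, by -0.96 ± 0.16 (adjusted p = 0.00494) and -0.41 ± 0.09 (adjusted p = 0.0153). Atm scored 54.1, 52.3 and 49.4 and 63.03, 64.1 and 51.6 in non-hair cells, and Ddb1 539, 522 and 535 and 577, 586 and 582. The calls of Atm, Ddb1, Gtf2h1 and Rad52 held in each of the 12 fits that leave out a replicate, that of Ercc8 in 4 and that of Polb in 5. Ercc8 was called without the third hair cell control or gentamicin replicate, the first non-hair cell control or the second non-hair cell gentamicin replicate. Polb was called without the first hair cell control, the third hair cell gentamicin, the first non-hair cell control, or the first or the third non-hair cell gentamicin replicate.

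For the other genes called higher in hair cells only, a different response in the 2 populations was not shown. The nearest were Xpa (0.50, adjusted p = 0.0547), Lig4 (0.39, adjusted p = 0.058), Ercc4 (0.32, adjusted p = 0.0628) and Gtf2h2 (0.45, adjusted p = 0.063). The median difference was 0.26 over excision repair, -0.14 over the other repair genes and -0.07 over all genes tested. With scaling by total reads 16 repair genes passed, 14 of them with a higher response in hair cells, and all genes split into 1500 higher and 716 lower in place of 1102 and 1056. Without the third hair cell gentamicin replicate 13 repair genes passed, and 2377 of all genes.

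Between the untreated populations, 12 of the 51 genes were higher in hair cells than in non-hair cells (28.1% of all genes were) and 14 lower (37.7%). Together 26 of the 51 were called, a smaller share than the 65.8% of all genes, and 25 were not. In excision repair 5 of 21 genes were called in either direction, and outside it 21 of 30. All hair cell replicates lay above all non-hair cell replicates for 15 of the 51 (34.5% of all genes) and below for 20 (44.6%). This comparison shares the control hair cells with the hair cell response above. Fanca was the most raised, with scores of 130.3, 132 and 126 in hair cells and 9.42, 9.40 and 8.69 in non-hair cells (3.82 ± 0.21, adjusted p = 1.81e-08). Ercc6 followed, at 532, 505 and 513 against 39.8, 40.4 and 43.7 (3.65 ± 0.09, adjusted p = 1.79e-11). Cetn2 scored 188, 179.8 and 208 against 30.1, 23.7 and 29.4 (2.80 ± 0.12), and Parp1, the sensor of strand breaks, 586, 544 and 512 against 131, 130.1 and 127 (2.08 ± 0.07). The 2 populations were far apart for all 4 genes.

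Of the 5 end joining genes 3 were called higher in hair cells (28.1% of all genes were): Xrcc5 at a log2 difference of 1.47, Lig4 at 1.10 and Prkdc at 0.64. Xrcc4 (0.26) and Xrcc6 (-0.12) were not called. Polb (1.37), Msh3 (0.87), Mre11a (0.62), Ercc3 (0.60) and Nbn (0.57) completed the 12. Among the 14 lower genes, Chek1 scored 2, 2.21 and 2.04 in hair cells and 8.10, 6.01 and 6.52 in non-hair cells and differed by -1.71 ± 0.24, Brca1 by -1.03, Brca2 by -0.99, Fancd2 by -1.05 and Chek2 by -1.36.  Ung (-1.71), Alkbh2 (-1.39), Polk (-1.03), Ddb2 (-0.93), Ercc1 (-0.84), Alkbh3 (-0.64), Ogg1 (-0.53), Apex2 (-0.42) and Atr (-0.29) were the rest of the 14. All 16 markers of cycling cells were lower in the same comparison, and their part in these differences was not tested. With median-of-ratios scaling the median over all genes moved from -0.12 to -0.01, and the split of the repair genes became 15 higher and 11 lower. Apex2, Atr and Ogg1 lost their calls with it.

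**Figure D4:**
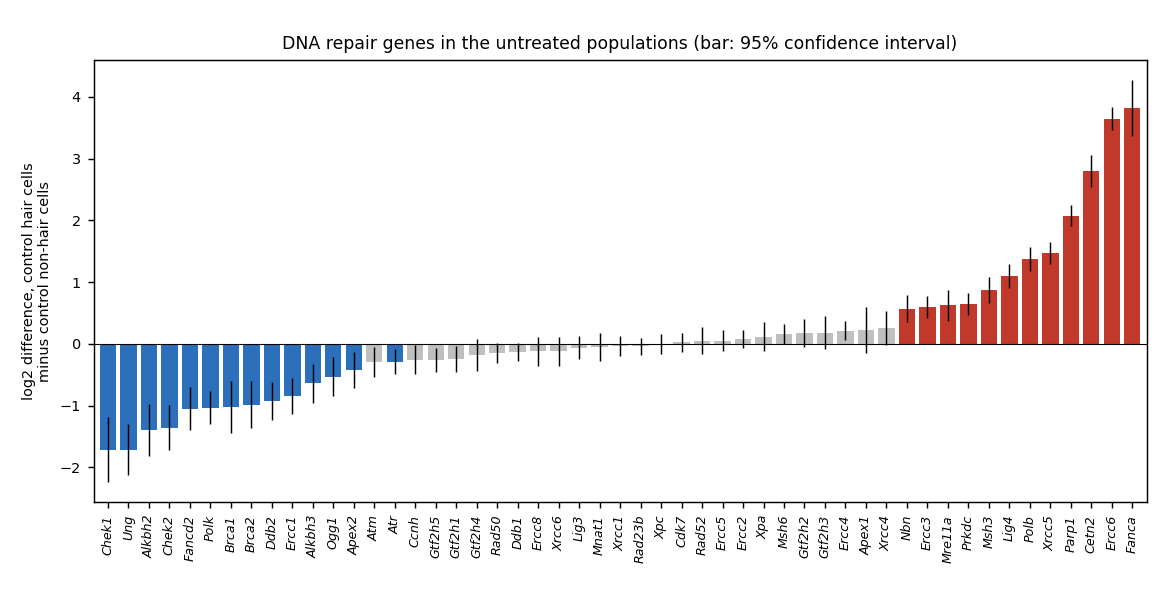
Log2 difference between untreated hair cells and untreated non-hair cells (y axis) for the 51 repair genes in order of size (x axis); black bars are 95% confidence intervals, red bars are genes called higher in hair cells, blue bars genes called lower and grey bars genes not called. Fanca and Ercc6 stand above 3 on the log2 scale and Chek1 and Ung below -1.5.

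Per kilobase of the longest principal transcript, with the added 1 taken off, the mean score in control hair cells was highest for Cetn2 at 149, Parp1 at 141, Ddb1 at 109, Polb at 70.1 and Ercc6 at 61.2. In control non-hair cells Ddb1 came first at 119, far ahead of Rad23b at 37.01, Cdk7 at 36.5 and Parp1 at 33.1. Chek1, Fancd2, Brca1 and Brca2 were at the foot of the order in control hair cells, at 0.285, 0.524, 0.73 and 0.761. On the same scale, the 4 genes with the largest log2 rises with gentamicin moved as follows. Rad52 went from 7.88 to 16.3, Gtf2h1 from 11.3 to 21.9, Alkbh3 from 7.27 to 12.6 and Ercc8 from 4.42 to 7.16. The kinase Atm went from 4.24 to 2.44.

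By position, 7 of the 51 genes (13.7%) lie on chromosome 13, which holds 3.62% of the genes tested. They are Ccnh, Xrcc4, Msh3, Polk, Gtf2h2, Cdk7 and Ercc8, in that order along 23.0 Mb of mm10 (chr13:85189408-108195364). All but Polk were called higher in hair cells. Of the 103 other genes tested in that stretch, 18 were called higher (17.5%) and 8 lower (7.77%), with a median log2 fold change of 0.03. The median span of the 19 genes called higher was 34.7 kb, against 24.6 kb for all genes called higher. Their spans ran from 8.64 kb (Lig4) to 316 kb (Xrcc4).

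Some of the genes overlap their neighbours. In the annotation 19 of the 51 genes share exon bases with another coding gene, 18 of them on the opposite strand, and whether the counting used strand is not given in the sources used here. Fanca shares 920 bases with Zfp276, which was itself higher in control hair cells (2.24 on the log2 scale). Lig3 shares 1826 bases with Rffl, which rose with gentamicin in hair cells by 0.42. Ccnh shares 12 bases with Rasa1, which rose by 0.37. Xrcc6 shares 344 bases with Desi1, which had -0.64. Apex1 shares 877 bases with Tmem55b, which had 0.07 in hair cells and was not called. For Apex2 the partner is Alas2 over 311 bases, and its scores were close to the lowest score in all groups. Of the other genes called, Xpa shares 77 bases with Ncbp1 (0.09 in hair cells) and Xrcc4 112 with Tmem167 (0.00), and the partners of Alkbh3 and Ddb1 were not analysed here. Gtf2h1, Ercc8, Rad52, Nbn, Lig4, Cdk7, Gtf2h2, Polb and Atm share no exon bases with a coding gene. The part of shared bases in the results was not tested.

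The promoters of 41 of the 51 genes, from RefSeq on GRCm38.p6, were read over the 250 bases before the start site. Those of Rad52, Gtf2h1 and Ercc8, the strongest risers in recombination, TFIIH and transcription-coupled repair whose response differed between the populations, and of Atm, which fell most, are printed 5′ to 3′ so that the genes that moved can be compared. Capitals mark matches, on either strand, to a GC box (GGGCGG) or a CCAAT box (CCAAT).
Rad52 (chr6:119902448-119902697, plus strand): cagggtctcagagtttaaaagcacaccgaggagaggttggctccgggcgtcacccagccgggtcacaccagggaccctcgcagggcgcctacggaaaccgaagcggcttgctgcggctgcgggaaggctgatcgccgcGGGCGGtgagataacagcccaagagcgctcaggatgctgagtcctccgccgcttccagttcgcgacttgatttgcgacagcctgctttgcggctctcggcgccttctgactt
Gtf2h1 (chr7:46795844-46796093, plus strand): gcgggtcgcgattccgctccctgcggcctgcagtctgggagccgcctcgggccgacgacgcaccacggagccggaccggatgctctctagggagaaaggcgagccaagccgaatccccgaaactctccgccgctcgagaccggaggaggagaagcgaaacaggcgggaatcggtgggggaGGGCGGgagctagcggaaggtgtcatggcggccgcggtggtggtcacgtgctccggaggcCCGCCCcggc
Ercc8 (chr13:108158488-108158737, plus strand): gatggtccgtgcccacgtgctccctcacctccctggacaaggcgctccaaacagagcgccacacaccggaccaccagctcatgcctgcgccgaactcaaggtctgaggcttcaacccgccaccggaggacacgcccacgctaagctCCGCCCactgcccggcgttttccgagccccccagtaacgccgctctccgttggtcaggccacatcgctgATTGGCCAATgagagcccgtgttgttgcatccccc
Atm (chr9:53536672-53536921, minus strand): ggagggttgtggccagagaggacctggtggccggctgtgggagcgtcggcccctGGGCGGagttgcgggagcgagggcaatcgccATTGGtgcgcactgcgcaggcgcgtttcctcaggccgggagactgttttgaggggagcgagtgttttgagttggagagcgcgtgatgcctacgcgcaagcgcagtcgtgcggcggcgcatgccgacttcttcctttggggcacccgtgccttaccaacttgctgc

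All 4 promoters are rich in G and C, at 64.0%, 71.2%, 65.2% and 66.0% in the order printed, and the median was 60.4% over the 41 repair genes and 59.6% over the 11659 genes tested that have a promoter. Each of the 4 holds at least 1 GC box. The Ercc8 promoter also holds a CCAAT box on each strand, back to back, starting 35 and 30 bases before the start site, and the Atm promoter has 1 starting 165 bases before it. A GC box was found in 9 of the 15 promoters of genes called higher in hair cells and in 56.8% of all promoters, and a CCAAT box in 4 of 15 and in 35.7% of all. None of the 15 held the AP-1 letters TGACTCA or TGAGTCA (3.22% of all) or the CRE letters TGACGTCA (2.65% of all). The palindromic NRF1 motif was found in Lig4 alone of the 15 (1.48% of all), the E2F letters TTTCCCGC or TTTGGCGC in Msh3 alone (2.35% of all) and the ETS letters CCGGAAGT in Gtf2h2 and Lig4 (5.12% of all). Over the 41 promoters, 4 held E2F letters: Xrcc6, Brca2, Msh3 and Chek2. Both strands were searched, and a match to GGGCGG or CCAAT may overlap a longer motif. A match is a run of letters, not a bound site.

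A wider list of 105 further repair genes, of which 104 were tested, was described in the same way. With gentamicin 16 were called higher in hair cells (12.7% of all genes were) and 9 lower (14.8% of all genes), with a median log2 fold change of 0.05. Among the 12 further excision repair genes, such as the RPA subunits and CUL4 ligases, 2 were higher and 1 lower, with a median of 0.02. The largest rises were Alkbh1, a further AlkB dioxygenase, from 23.7 ± 0.912 to 63.2 ± 3.42 (SD, n = 3; log2 1.42), Dclre1a, a crosslink nuclease, from 37.2 ± 0.883 to 69.2 ± 14.2 (log2 0.88), and Gen1, a resolvase of recombination junctions, from 4.17 ± 0.434 to 7.50 ± 1.03 (log2 0.84). The largest falls were Xrcc3, a recombination gene, from 20.1 ± 0.987 to 11.4 ± 0.378 (log2 -0.82), Fancg, of the Fanconi core, from 8.06 ± 0.95 to 5.06 ± 0.698 (log2 -0.67), and Rev1, a translesion polymerase, from 39.97 ± 2.49 to 25.1 ± 0.792 (log2 -0.67). In non-hair cells 4 of the 104 were called higher (3.18% of all genes were), led by Fancl (0.46), Hmgn1 (0.39) and Slx4 (0.34). The 2 called lower (2.26% of all genes were) were Neil2 (-0.45) and Ube2b (-0.39). These shares were near those of all genes, and none of these genes had an adjusted p below 0.05 in limma. Between the controls 21 of the 104 were higher in hair cells (28.1% of all genes) and 46 lower (37.7%).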

How the data were processed

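Deposited values were 1 score per gene and replicate in 4 tables of 23420 genes, 1 table for each group. Per the labels and the study's methods, the authors trimmed single-end reads, aligned them to mm10 with TopHat 2 in PartekFlow and normalised them. The methods name normalisation by length, of which the deposited scores show no sign: with 1 taken off, 82.9% to 83.9% of low values were whole multiples of a replicate's step (tolerance 0.1). Because not all were whole, scores were not treated as counts. Scaling by the authors bears on every fold change.

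Scores were fitted on the log2 scale, with no further offset since the lowest score is 1, with limma 3.58.1 in R 4.3.3, all 4 groups in 1 model with a mean per group, empirical Bayes moderation with a trend and two-sided tests. Fold changes on this scale understate changes of genes with low scores. The minimum was 100 recovered reads over the 12 replicates. The study speaks of biological replicates, and the labels do not say how many animals were pooled. Same-numbered control samples of the 2 populations deviated together (correlations 0.22, 0.32 and 0.20). For same-numbered gentamicin samples the correlations were 0.38, -0.04 and -0.02. The numbers come from the column headers alone. Scripts were tested on simulated data. Lists are described by counts and medians, with no set test.

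The alternatives were other scalings, offset 0.1, no minimum or 1000 reads, a replicate block, array weights, separate fits, other thresholds and leaving out each replicate. The members and lists were chosen with earlier results of these data known. Named genes were all 51, with replicate values for those called with gentamicin, and the 3 largest changes in each direction of the wider list. Transcript lengths came from GENCODE annotation of the same build, promoters from RefSeq. Python 3.11.15 was used for counts and figures.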

Additional observations from a re-analysis of the deposited data

Results flagged for a closer look

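The response to gentamicin differed between hair cells and non-hair cells for 6 of the 51 repair genes, by the interaction term in limma at an adjusted p below 0.05, which 13.4% of all genes passed. On the log2 scale the hair cell response exceeded the non-hair cell response by 1.16 ± 0.14 for Rad52, 0.75 ± 0.13 for Gtf2h1, 0.54 ± 0.15 for Ercc8 and 0.50 ± 0.13 for Polb. It was lower by -0.41 ± 0.09 for Ddb1 and -0.96 ± 0.16 for Atm. In Rad52, Polb, Ddb1 and Atm the 2 responses had opposite signs, and in Gtf2h1 and Ercc8 both were above 0. None of the 6 genes was called in non-hair cells, where each 95% confidence interval included 0, so a response of opposite direction there was not shown. Of 12 fits that each leave out 1 replicate, Ercc8 passed in 4, Polb in 5 and the other 4 genes in all.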

How the results depend on the processing

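No repair gene changed direction while called, in any comparison, under the alternatives run. In hair cells 22 genes were called, 7 with a fold above 1.5, and 15 to 21 without 1 replicate. Over all 16088 genes the counts were 4418, 2074 and 3288 to 4133. With a fold above 1.5, 5 repair genes were higher, 2 of them in excision repair, and 2 lower. All genes then split into 855 higher and 1219 lower. In non-hair cells 4 repair genes were called, 0 when only the 2 groups compared were fitted, 0 at an adjusted p with no fold threshold, 1 with a fold above 1.5, and 0 to 8 without 1 replicate. The counts over all genes, in the same order, were 876, 383, 55, 219 and 411 to 1571. The responses differed for 6 repair genes, 16 with scaling by total reads, 18 with array weights (which raised the count over all genes from 2158 to 3859), and 4 to 13 without 1 replicate. Of all genes 2216 differed with scaling by total reads and 1160 to 2377 without 1 replicate. Between the controls 26 repair genes were called (10585 of all genes), and 22 to 31 under the alternatives (8344 to 11911 of all genes). Alkbh3, Apex2, Atm, Ercc8, Gtf2h1 and Rad52 were called in hair cells under all 16 alternatives, and Cdk7, Gtf2h2, Lig4, Nbn and Rad23b under all but the fold above 1.5.

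A replicate block, from the numbers in the column headers, gave 23 genes in hair cells, 3 in non-hair cells, 5 for the difference and 26 between the controls. With it Chek2 gained a call in hair cells, Polk lost its call in non-hair cells and Ercc8 lost its interaction, and it changed no other call. Same-numbered control and gentamicin samples had correlations of 0.04, 0.05 and 0.04 between their deviations in hair cells and 0.21, -0.23 and 0.68 in non-hair cells. Not every sample correlated best with its own number. With 3 replicates a group these correlations cannot settle whether same-numbered samples are paired. At this depth genes with few reads, such as Chek1, Ung, Alkbh2 and Fancd2 in hair cells, have wide intervals. The causes of these changes were not tested.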
